A study of Mus musculus with 96 samples.

Results

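The 10 genes followed here mark Kupffer cells and other resident macrophages, and were read in every library of a mouse liver RNA-Seq series: *Clec4f*, *Vsig4*, *Cd5l*, *Timd4*, *Marco*, *Csf1r*, *Adgre1*, *C1qa*, *C1qb* and *Cd68*. They were chosen by name, and this choice and that of the gene lists below were made with earlier results of these data known. All 10, of 25095 genes listed, were found in each of 4 tables of expression values. Where several transcripts of a gene were listed, the one with the highest mean over a table stood for it.

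The series holds 96 libraries, 48 of hepatocytes and 48 of liver macrophages (LMs), with 3 per genotype, cell type and zeitgeber time. Zeitgeber time (ZT) is counted in hours from lights on, and mice were kept under 12 hours of light and 12 hours of dark. The times were ZT4 and ZT10 in the light and ZT16 and ZT22 in the dark. All mice were male C57BL/6J, carried floxed alleles, received a virus intravenously at 8 weeks of age, and were fed a diet rich in fat and sucrose for 4 weeks. Controls received AAV-TBG-GFP. The other groups received AAV-TBG-CRE, whose TBG promoter is active in hepatocytes, so that the recombination was aimed at hepatocytes and not at macrophages. RevDKO denotes deletion of *Nr1d1* and *Nr1d2*, which encode REV-ERBα and REV-ERBβ, nuclear receptors that repress clock genes. RevScapTKO adds deletion of *Scap*, whose product escorts the lipid regulators SREBP to where they are activated, and ScapKO denotes deletion of *Scap* alone. Control, RevDKO and RevScapTKO shared 1 table per cell type, and ScapKO libraries were in 2 tables of their own with no control, so ScapKO was set against no other genotype. Nothing in the labels says whether libraries of a group came from separate mice, so p-values measure the spread between these libraries.

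Kupffer cells are the macrophages that line the liver sinusoids. They settle before birth, renew themselves locally under signals through the CSF1 receptor, and clear particles, bacteria and aged red cells from portal blood. Their identity depends on myeloid transcription factors such as PU.1 (gene *Spi1*) and c-Maf, and on liver-specific input through LXRα (gene *Nr1h3*) and Id3. *Clec4f* encodes a C-type lectin of Kupffer cells. *Vsig4* encodes the complement receptor CRIg, *Marco* a scavenger receptor, and *Timd4* a receptor for phosphatidylserine that marks long-resident cells. *Cd5l* encodes a secreted scavenger protein, *C1qa* and *C1qb* encode chains of complement C1q, *Csf1r* the CSF1 receptor, *Adgre1* the antigen F4/80, and *Cd68* a lysosomal glycoprotein of phagocytes in general.

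In the mm9 annotation of the files, *Clec4f* (NM_016751) spans 83594536 to 83606110 of chromosome 6 on the minus strand, *Cd5l* (NM_009690) spans 87161803 to 87174996 of chromosome 3 on the plus strand, and *Marco* (NM_010766) spans 122371115 to 122401601 of chromosome 1 on the minus strand. *C1qb* (136436041 to 136442115) and *C1qa* (136451831 to 136454759) are neighbours on the minus strand of chromosome 4. Promoter windows of 7 of the 10 genes were matched in a RefSeq table of GRCm38.p6. The 250 bases before the annotated start are shown for the lectin, the secreted scavenger protein and a complement chain, since these stand for 3 roles among genes that moved together in the hepatocyte libraries. Capitals mark AGGAAG, a core recognised by PU.1 and other ETS factors, and TGCTGA, a short element bound by c-Maf, each on either strand.
Clec4f, chr6:83656117-83656366, minus strand: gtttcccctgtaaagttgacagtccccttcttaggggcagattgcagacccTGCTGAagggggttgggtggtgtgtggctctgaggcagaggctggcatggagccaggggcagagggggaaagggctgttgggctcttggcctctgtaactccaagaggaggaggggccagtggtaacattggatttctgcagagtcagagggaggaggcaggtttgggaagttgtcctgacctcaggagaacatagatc
Cd5l, chr3:87357631-87357880, plus strand: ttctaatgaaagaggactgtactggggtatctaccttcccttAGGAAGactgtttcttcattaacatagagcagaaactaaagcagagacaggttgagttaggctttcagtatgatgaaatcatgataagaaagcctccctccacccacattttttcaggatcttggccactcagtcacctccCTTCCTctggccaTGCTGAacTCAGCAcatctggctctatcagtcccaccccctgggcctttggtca
C1qb, chr4:136886201-136886450, minus strand: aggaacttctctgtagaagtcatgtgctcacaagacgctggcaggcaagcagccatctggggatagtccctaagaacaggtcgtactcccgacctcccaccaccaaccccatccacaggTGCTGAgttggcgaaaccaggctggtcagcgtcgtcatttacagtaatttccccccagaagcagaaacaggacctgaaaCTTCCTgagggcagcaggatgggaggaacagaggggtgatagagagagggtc
AGGAAG was present in 3 of the 7 windows (*Cd5l*, *Marco* and *C1qb*) and in 29.6% of the 32536 distinct windows of this length searched. In *Cd5l* it began 208 and 67 bases before the start, and in *C1qb* 52 bases before it. TGCTGA was present in 4 of the 7 windows (*Clec4f*, *Cd5l*, *Timd4* and *C1qb*) and in 16.1% of these windows. The DR4 element of LXR was in 0 of the 7 windows and in 0.0154% of these windows. These matches describe the letters only.

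Levels are in RPKTM, a read density scaled by transcript length and library size and equal to 10 times RPKM, quantile normalized by the authors within each table. Every library of a table therefore holds the same set of values in another order, a level reflects a gene's rank, and levels were compared within a table only. The labels were checked against *Scap*, the REV-ERB genes and their target *Arntl* in hepatocytes. The median level of *Scap* was 494 RPKTM in Control, 525 in libraries labelled RevDKO and 210 in libraries labelled RevScapTKO, which follows the labels. The median of *Nr1d1* was 45.9 in Control, 91.3 in RevDKO and 131 in RevScapTKO, and that of *Nr1d2* was 218, 320 and 361, both higher than in Control. These values cover whole transcripts, in which exons that are not deleted can still give reads, so they neither check the labels nor contradict them by themselves. *Arntl*, the clock gene that REV-ERB represses, ran from 4.21 to 119 RPKTM in Control (median 60.6), from 117 to 155 in RevDKO (median 141) and from 96.7 to 141 in RevScapTKO (median 117), a difference in the direction of the labels. Genotypes below are those the libraries are labelled with.

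The cell type labels were checked with marker lists. In the hepatocyte table the 10 genes summed to between 0.0276% and 1.07% of themselves plus 10 hepatocyte markers. In the LM table this share ran from 0.41% to 38.2% with a median of 8.89%, and the hepatocyte markers exceeded the 10 genes in all 36 LM libraries. In the ScapKO LM table the share had a median of 62.3%, and the hepatocyte markers were the higher in only 2 of 12 libraries. None of the 360 values of the 10 genes in the LM table of 3 genotypes was 0. In the LM libraries *Alb* was highest in Control ZT22 replicate 1 and ZT16 replicate 1 and in RevScapTKO ZT22 replicate 3. For the 10 genes, the LM comparisons of mean level are given with and without these 3 libraries. For the genes of other lists they are given only with these libraries included. In bulk RNA, fewer macrophages and less macrophage RNA per cell cannot be told apart.

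**Figure D1:**
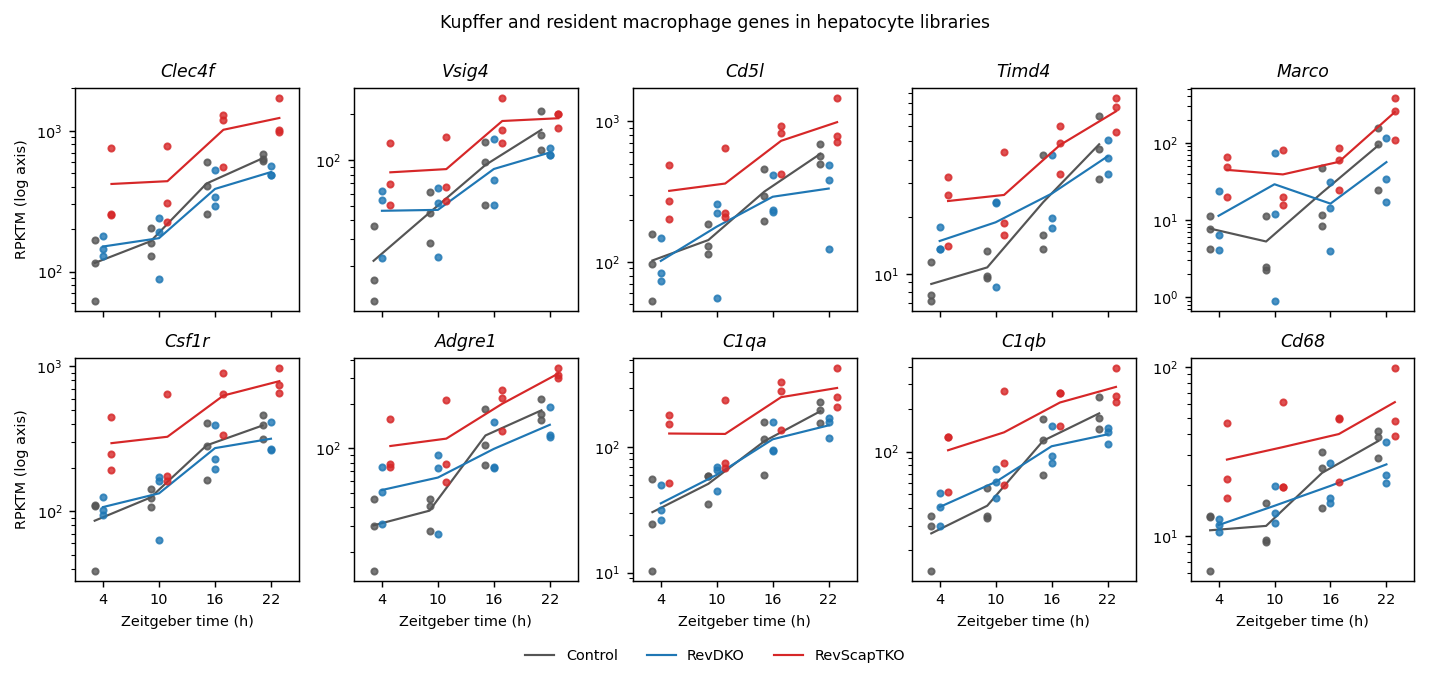
Levels of the 10 genes in hepatocyte libraries, as RPKTM on a log axis against zeitgeber time in hours. Points are libraries (3 per genotype and time) and lines join the means. Means are higher at ZT22 than at ZT4 in each genotype, but not every step between these times rises, as *Marco* shows. RevScapTKO means lie above the others at every time.

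In hepatocyte libraries, the Kupffer genes were higher in RevScapTKO than in RevDKO, a comparison that asks what the added loss of *Scap* does. All 10 rose, from 1.6-fold for *Timd4* to 3.81-fold for *Marco*, where 13.5% of the 13326 genes tested were higher and 26.2% differed in either direction. The median log2 difference was 1.09 for the 10 genes and -0.03 for all genes. The fit was limma on log2(RPKTM + 1) with Benjamini-Hochberg adjustment over all genes tested, averaged over the 4 times, and calls were made at an adjusted p under 0.05. The same 10 genes were higher in RevScapTKO than in Control, where 17.3% of genes were higher and 35.9% differed either way, with a median log2 difference of 1.21. These contrasts share the RevScapTKO libraries.

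*Clec4f* showed the pattern most plainly. At ZT4 its 3 RevDKO libraries held 128, 145 and 178 RPKTM and its RevScapTKO libraries 255, 252 and 749. At ZT22 the RevDKO values were 563, 482 and 481, and the RevScapTKO values 1013, 1704 and 980.3. At both times every RevScapTKO library was above every RevDKO library. Averaged over times, *Clec4f* was higher by 1.28 on the log2 scale (SE 0.22, adjusted p = 7.39e-05 by limma), or 2.42-fold.

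The ranges at ZT10 overlapped. There *Clec4f* was at 239.7, 88.5 and 189.6 in RevDKO and at 223, 783 and 309 in RevScapTKO, and 0 of the 10 genes separated the 2 genotypes at that time, against 8.22% of all genes. At ZT4, 6 of 10 genes had every RevScapTKO library above every RevDKO library, against 11.9% of all genes. At ZT16 the count was 2 (*Clec4f* and *Cd5l*, 8.72% of all genes), and at ZT22 it was 9, all but *Marco*, against 10.6%. Against Control, 9 genes separated at ZT4 (all but *C1qa*, 12.7% of all genes) and 9 at ZT10 (all but *Vsig4*, 14%), but 0 at ZT16 (10.3%) and 4 at ZT22 (*Clec4f*, *Cd5l*, *Csf1r* and *Adgre1*, 10.8%).

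*Marco* spread most of the 10 genes. In hepatocyte libraries it ran from 0.9 to 117 in RevDKO (median 15.7) and from 15.6 to 378 in RevScapTKO (median 62.2). The 2 ranges overlapped widely, and its log2 difference of 1.93 had the widest interval of the 10 genes (0.95 to 2.91, adjusted p = 0.00372 by limma). *Cd5l* ran from 55.1 to 492 in RevDKO and from 202 to 1455 in RevScapTKO, a 2.68-fold difference (log2 interval 0.89 to 1.96, adjusted p = 0.000197 by limma). *Timd4* and *Vsig4* had the smallest differences, at 0.68 and 0.89.

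The complement chains and the broad macrophage markers moved by about the same amount. The log2 difference was 1.13 for *C1qa* and 1.05 for *C1qb*, 1.24 for *Csf1r*, 1 for *Adgre1* and 1.01 for *Cd68*. *C1qa* ran from 26.1 to 172 in RevDKO (median 81.6) and from 51.6 to 430 in RevScapTKO (median 196). *Csf1r* had a median of 183 in RevDKO and 545 in RevScapTKO. For both genes the highest RevDKO library was above the lowest RevScapTKO library.

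Between RevDKO and Control hepatocyte libraries, 0 of the 10 genes passed the limma test, and 0 had an unadjusted p under 0.05, where 4.43% of all genes tested passed. Differences ran from -0.25 for *Cd5l* to 0.35 for *Timd4*. The 95% interval was -0.43 to 0.46 for *Clec4f* and -0.90 to 1.06 for *Marco*, so differences of these sizes were not detectable here. At ZT22 alone, every RevDKO library was below every Control library for *Clec4f* and *Cd5l*, 2 of 10 genes against 8.18% of all genes.

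Other cell types' markers differed too. Of 10 pan-macrophage and leukocyte genes, all 10 were higher in RevScapTKO than in RevDKO hepatocyte libraries, with a median log2 difference of 1.09. *Ctss*, a lysosomal protease, rose by 1.54, and *Ptprc*, which encodes the leukocyte antigen CD45, by 1.32. Of 7 stellate cell markers 6 rose (median 1.06), among them *Reln* and *Col1a1*, and of 7 sinusoidal endothelial markers 4 rose (median 0.44), among them *Stab2* and *Kdr*. Of 10 hepatocyte markers 5 fell, with a median of -0.34. The summed level of the pan-macrophage list ran from 213 to 747 in RevDKO and from 342 to 1887 in RevScapTKO, and none of its genes was at 0 in every library of a genotype. The stellate list ran from 690 to 1732 and from 1459 to 3525, and the endothelial list from 719.6 to 1930 and from 1117 to 2757.

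With the mean log2 level of the pan-macrophage list as a covariate, 0 of 10 Kupffer genes passed in either RevScapTKO contrast, and 0 had an unadjusted p under 0.05. Their median log2 difference from RevDKO was then -0.02, with *Clec4f* at 0.16 (-0.14 to 0.47), and 2.51% of all genes passed, against 6.3% for the contrast with Control. Between RevDKO and Control 0 of 10 passed in this fit, with 2 at an unadjusted p under 0.05, and 5.58% of genes did. With the endothelial list as covariate, chosen after seeing the data, 5 of 10 passed against RevDKO (*Clec4f*, *Cd5l*, *Csf1r*, *C1qb* and *Cd68*, with 10.9% of genes passing) and 0 against Control (8.85%), where 4 had an unadjusted p under 0.05. The covariate lists differ between the genotypes themselves, so these fits take away what a Kupffer gene shares with the list. *Ptprc*, *Tyrobp* and *Lyz2* of the pan-macrophage list were also among the genes most like the Kupffer genes over these libraries. The fit with that list therefore could not tell more macrophages from more macrophage RNA per cell. The part of these cells in the difference was not tested.

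**Figure D2:**
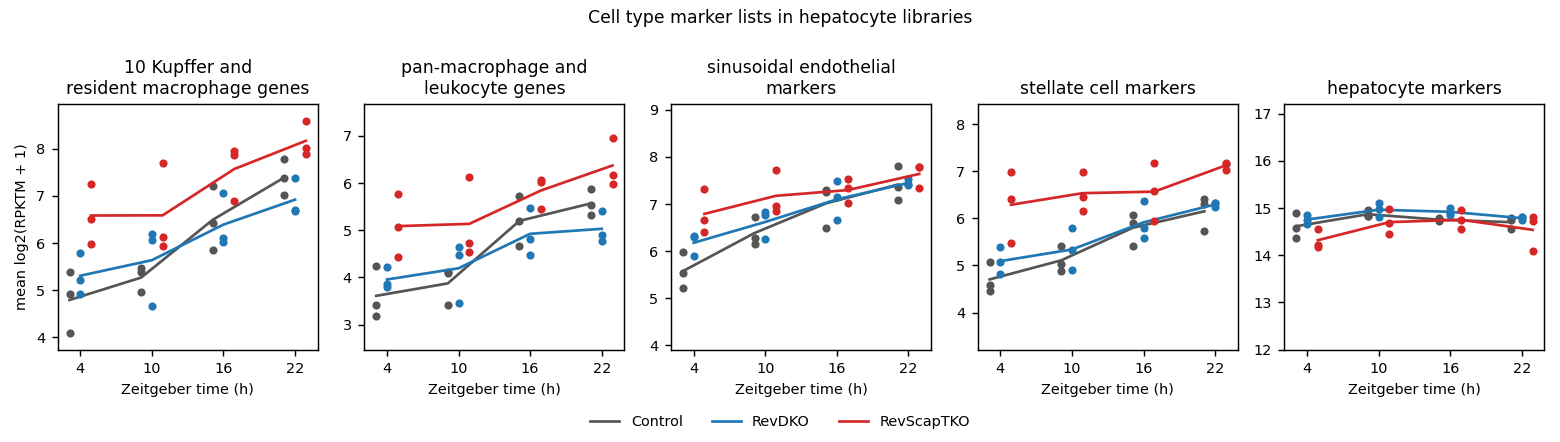
Mean log2(RPKTM + 1) of 5 gene lists in hepatocyte libraries against zeitgeber time in hours, 1 point per library, lines through the means, with panels of equal height in log2 units. The macrophage, endothelial and stellate lists are higher at ZT22 than at ZT4 and lie highest in RevScapTKO, and the hepatocyte markers stay within a narrow band.

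The genes related to the 10 followed them in part. Of 10 other Kupffer and resident macrophage genes, 9 rose in RevScapTKO against RevDKO hepatocyte libraries (median 0.85). *Siglec1*, a sialic acid receptor, rose by 1.33, and *Slc40a1*, the iron exporter ferroportin, by 0.72. One of the 9, the complement gene *C6*, stood at a mean of 3147 RPKTM in RevScapTKO and is also made by hepatocytes. Of 8 lineage transcription factors 6 rose: *Irf8*, *Id3*, *Maf*, *Spi1*, *Spic* and *Zeb2*. Both ligands of the CSF1 receptor rose, *Csf1* by 0.73 and *Il34* by 0.65. Of 10 genes of recruited or lipid-associated macrophages 7 could be tested and 5 rose, with *Gpnmb*, a glycoprotein of lipid-laden macrophages, at a mean of 5.71 against 0.24 RPKTM, and *Ccr2*, the receptor of recruited monocytes, at 12.8 against 2.92. Both RevDKO means lay near the floor, below the 5 RPKTM that a gene had to exceed in at least 3 libraries to be tested. Both genes may thus have entered the test through the libraries where they were high.

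**Figure D3:**
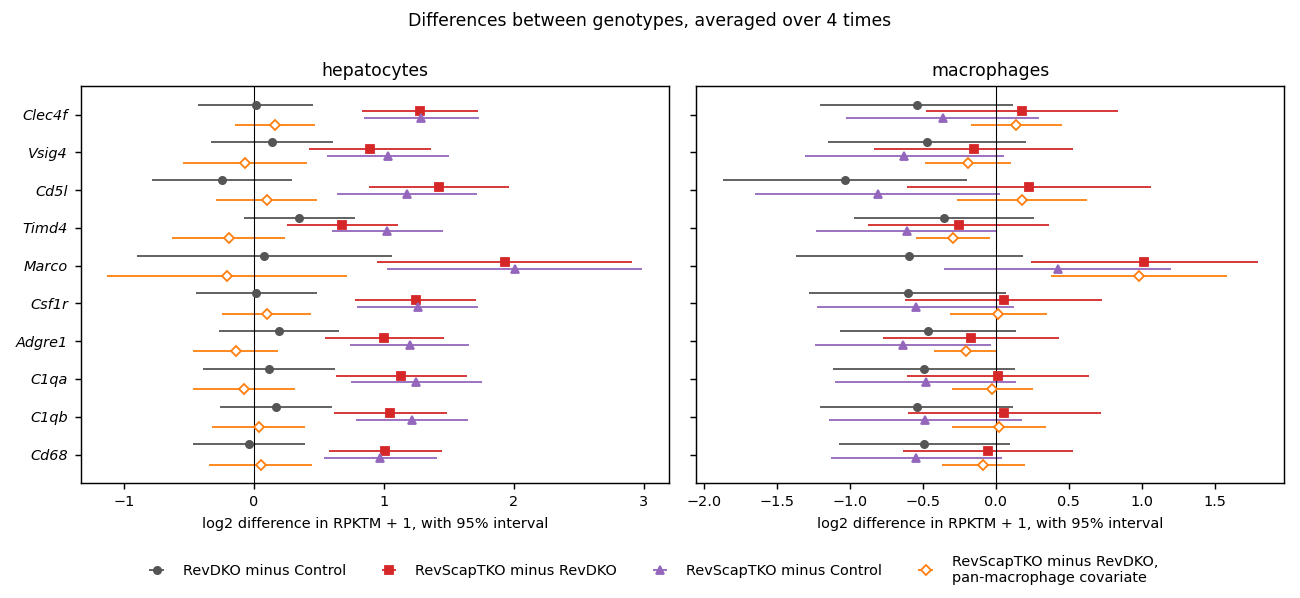
Log2 differences between genotypes for the 10 genes in hepatocyte and LM libraries, with 95% intervals from limma. In hepatocytes the RevScapTKO differences lie right of 0 and return to it with the pan-macrophage covariate (open diamonds). In LMs the intervals of the fits without a covariate reach 0 for most genes.

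In the LM libraries 0 of the 10 passed the limma test in any of the 3 contrasts. All 10 were lower in RevDKO than in Control by value, with a median log2 difference of -0.52 against -0.04 for all genes, where 0.574% of genes passed. *Cd5l* alone had an unadjusted p under 0.05, at a log2 difference of -1.03 (-1.87 to -0.20, adjusted p = 0.27 by limma). It passed once Control ZT22 replicate 3 was left out, at an adjusted p of 0.0396 by limma and a difference of -1.33. The contrast also holds RevDKO ZT10 replicate 2, where *Cd5l* was at 302 RPKTM, its lowest value in the LM table. The ratio of *Cd5l* to *Clec4f* was 0.0616 in that library, with the next lowest RevDKO ratio at 0.71. Without the 3 libraries highest in *Alb*, the median of the 10 genes was -0.24 and 0 had an unadjusted p under 0.05. The pan-macrophage and leukocyte list moved alike, with 9 of 10 genes lower by value and a median of -0.47, and with it as covariate the median of the Kupffer genes was -0.045.

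*Clec4f* in LM libraries ran from 669 to 7571 RPKTM in Control with a median of 4167, from 856 to 7571 in RevDKO with a median of 2215, and from 1159 to 7571 in RevScapTKO with a median of 2648. The 3 ranges overlapped almost whole. Control ZT22 alone held 7201, 3064 and 669, and the replicates of 1 time and genotype could thus differ by more than the genotypes' medians. The other genes shared this spread. *Adgre1* ran from 268 to 2023 in Control and from 273 to 1776 in RevDKO, and *C1qb* from 286 to 2643 and from 330 to 3558.

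Between RevScapTKO and Control LMs 3.76% of genes passed, and the median log2 difference of the 10 genes was -0.55. It was -0.21 without the 3 libraries highest in *Alb*, -0.11 with the pan-macrophage covariate and -0.88 with the hepatocyte covariate, so its size rested on these choices. Here *Adgre1* alone had an unadjusted p under 0.05, with a log2 difference of -0.64 (-1.24 to -0.034, adjusted p = 0.256 by limma). Between RevScapTKO and RevDKO LMs the median was 0.03 (0.049 without the 3 libraries and -0.31 with the hepatocyte covariate), and 3% of genes passed. *Marco* stood apart there with a difference of 1.02 (0.24 to 1.79, adjusted p = 0.127 by limma). It passed without RevDKO ZT10 replicate 3, at 1.3 and an adjusted p of 0.0287. It also passed with the pan-macrophage covariate, chosen after seeing the data, at 0.98 (0.38 to 1.58, adjusted p = 0.0456 by limma), in a fit where 5.16% of genes passed and the other 9 Kupffer genes did not. With that covariate 0 of 10 passed in the 2 contrasts with Control, where 0.452% (RevDKO) and 4.04% (RevScapTKO) of genes did and 0 and 1 Kupffer genes had an unadjusted p under 0.05.

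*Marco* was the gene that followed the others least. Over the 36 LM libraries its Pearson correlation with the mean of the other 9 genes was 0.378, while the other genes had values between 0.833 (*Cd5l*) and 0.977 (*Adgre1*). These libraries share one normalization, and the values are a description. In Control LMs *Marco* was at 150.2, 101 and 98.6 RPKTM at ZT4, at 100.4, 135 and 109 at ZT10, at 172, 46.7 and 157 at ZT16, and at 1005, 483 and 119 at ZT22. Its level divided by that of *Clec4f* was between 0.14 and 0.178 at ZT22 and at most 0.0906 at the other times of Control. This ratio was chosen after the values were seen, and the share of other ratios that separate so was not computed. The other genotypes did not show this separation, but a difference between genotypes in the ratio was not tested. For the level of *Marco*, the joint limma test of daily pattern described below gave an adjusted p of 0.891 between RevDKO and Control LMs. The ratio ran from 0.0388 to 0.244 at ZT22 in RevDKO, where it reached 0.205 at ZT10, and from 0.071 to 0.262 at ZT22 in RevScapTKO, where it reached 0.107 at ZT16. In hepatocyte libraries *Marco* correlated at 0.858 with the others.

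Among genes outside the 10, those most like their mean over the 36 LM libraries were *Lgmn*, *C1qc*, *Slc40a1*, *Wfdc17* and *Lyz2*, with Pearson correlations of 0.977 to 0.955. *Lgmn* encodes a lysosomal protease, *C1qc* the third chain of C1q, and *Lyz2* lysozyme. In hepatocyte libraries they were *Axl*, *Ptprc*, *Tyrobp*, *Lyz2* and *Adgre4*, at 0.974 to 0.965. *Lyz2* was in both groups.

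Of 10 genes of recruited and lipid-associated macrophages, all 10 were higher by value in RevScapTKO than in RevDKO LMs, with a median of 0.9, and 2 passed. Between RevDKO and Control LMs 7 of them were lower by value, with a median of -0.41, and 0 passed. They were not tested against the Kupffer genes. *Gpnmb* rose by 2.42 to a mean of 15.0 RPKTM, and *Spp1*, which encodes osteopontin, by 1.60, from 27.9 to 72.4. Against Control, *Gpnmb* rose by 2.26 and *Ly6c2*, a monocyte antigen, rose from a mean of 1.94 to 6.64. The Control mean of *Ly6c2* lay below the 5 RPKTM that a gene had to exceed in at least 3 libraries to be tested. *Ly6c2* may thus have entered the test through the libraries where it was high. The same may hold for *Gpnmb*, whose RevDKO and Control means in LMs are not given here. Of the 10 other Kupffer genes only *Hmox1*, the heme oxygenase of iron recycling, passed in an LM contrast, lower by 0.98 in RevScapTKO than in Control. None of the 8 transcription factors and neither CSF1R ligand passed in the 3 LM contrasts.

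In the same LM contrasts 2 of 7 stellate cell markers passed, the collagens *Col1a1* and *Col3a1*. They were higher in RevScapTKO, by 1.58 and 0.88 against RevDKO and by 1.89 and 1.21 against Control. By value 4 of the 7 were higher and 3 lower than in RevDKO (median 0.10), and 5 were higher and 2 lower than in Control (median 0.26). Of 10 hepatocyte markers *Cyp2e1*, *Cps1* and *Ass1* passed against RevDKO, with log2 differences of -1.44, -1.18 and -1.34. Against Control *Cyp2e1* and *Cps1* passed, at -1.75 and -0.89. By value 8 of the 10 were lower and 2 higher in RevScapTKO in each contrast (medians -0.38 and -0.44). None of the 7 endothelial markers passed, and none passed in any list between RevDKO and Control. The summed hepatocyte markers ran from 46423 to 1623310 RPKTM in RevScapTKO and from 65877 to 154419 in RevDKO, and the summed stellate markers from 705 to 1655 and from 596 to 1622. With the hepatocyte list as covariate 0 of the 10 Kupffer genes passed in any contrast, with 5 at an unadjusted p under 0.05 between RevScapTKO and Control (14% of all genes passing), 1 between RevScapTKO and RevDKO (9.46%) and 1 between RevDKO and Control (0.602%).

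**Figure D4:**
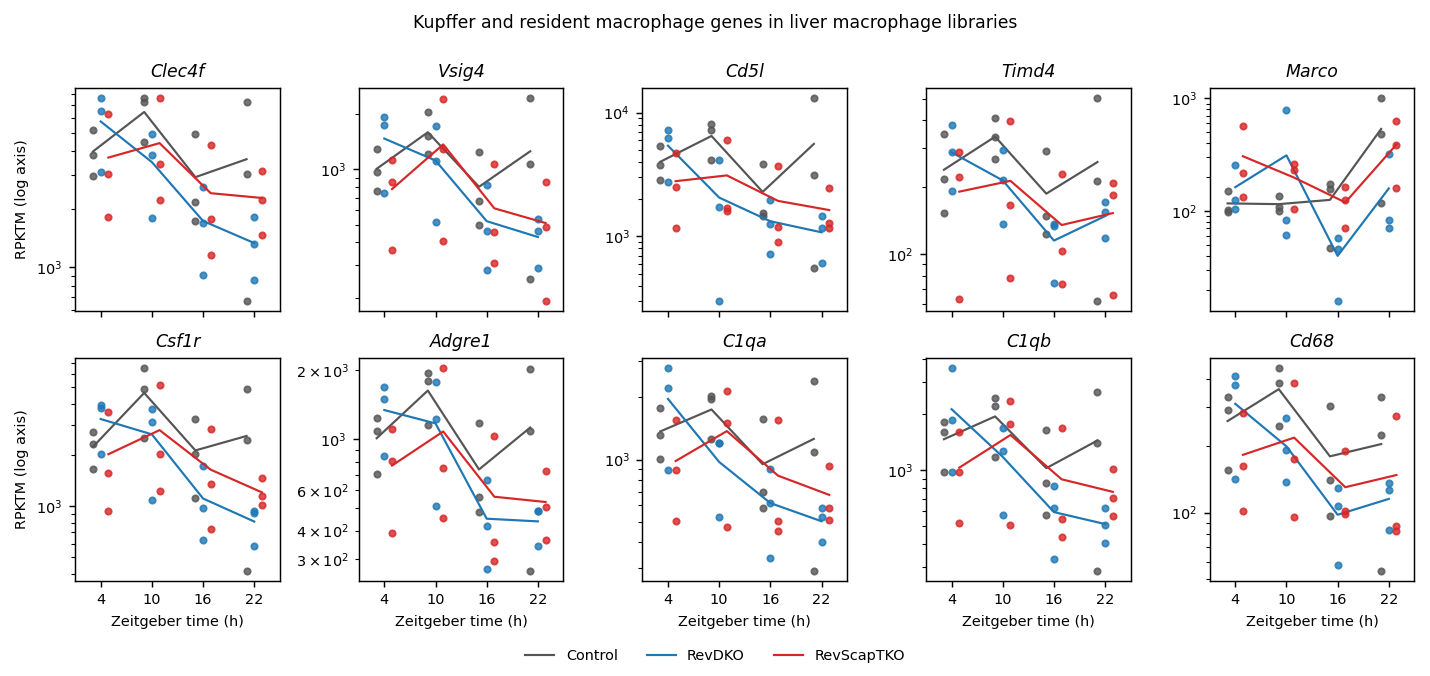
Levels of the 10 genes in LM libraries, as RPKTM on a log axis against zeitgeber time in hours, with 3 libraries per genotype and time as points and lines joining means. The genotypes overlap, RevDKO is lowest at ZT16 and ZT22, and *Marco* departs from the shape of the others.

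Daily rhythm was tested with JTK_CYCLE per genotype, on a series entered 2 times, with periods of 18 and 24 hours, a p multiplied by 7 for the patterns tried, and a peak/trough ratio above 1.5. Entering the series again makes p-values too small, and they are not adjusted over genes. In hepatocyte libraries 10 of 10 Kupffer genes were called in Control, against 24.8% of genes, 7 in RevDKO (24.9%), 7 in RevScapTKO (16%), and 0 in ScapKO (15.6%). The mean was highest at ZT22 for all 10 genes in each of Control, RevDKO and RevScapTKO, and lowest at ZT4 for 9, 10 and 8 of them.

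The hepatocyte Control values show the size of the swing. *Clec4f* was at 62, 114 and 169 RPKTM at ZT4, at 204, 128 and 160.2 at ZT10, at 258, 406 and 603 at ZT16, and at 678, 608 and 625 at ZT22. The ZT22 libraries were all above those of the other times for this gene, and the peak/trough ratio was 5.54. *Marco* went from 2.44, 2.23 and 11.1 at ZT10 to 155, 24.2 and 96.2 at ZT22, a ratio of 17.4. *C1qb* went from 14.4, 30 and 34.8 at ZT4 to 243, 144 and 172 at ZT22, a ratio of 7.06. For all 10 genes every Control ZT22 library was above every ZT4 library, against 12.9% of all genes.

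In RevDKO 8 of 10 genes (all but *Cd5l* and *Marco*) had every ZT22 library above every ZT4 library, against 14.5% of genes, and in RevScapTKO 9 of 10 (all but *Cd68*), against 7.65%. Peak/trough ratios were 2.28 to 4.96 in RevDKO and 2.18 to 6.41 in RevScapTKO. limma over the 4 times called 10 genes in Control, where 6.61% of genes were called, 2 in RevDKO (*Clec4f* and *C1qa*, 2.48%) and 1 in RevScapTKO (*Clec4f*, 0.87%). With the series entered once JTK_CYCLE called 1, 0 and 1 (6.36%, 5.71% and 2.35% of genes), and with a peak/trough ratio above 2 it called 10, 7 and 7 (13.1%, 11.3% and 7.22%). Leaving out ZT4 replicate 3 left 4 genes in RevDKO. Leaving out ZT10 replicate 3, ZT22 replicate 1 or ZT22 replicate 3 left 4 in RevScapTKO. Shares of all genes with a library left out are not given here.

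The markers of other cells rose with the hours too. In Control hepatocyte libraries the summed level of the pan-macrophage list was 141 to 307 RPKTM at ZT4 and 754 to 957 at ZT22, that of endothelial markers 418 to 758 and 1365 to 2402, and that of stellate markers 246 to 578 and 965 to 1866. Hepatocyte markers summed to 631153 to 823346 at ZT4 and to 628741 to 1190000 at ZT22. With either the pan-macrophage or the endothelial list as covariate, chosen after seeing the data, limma called 0 of 10 Kupffer genes over time in all 3 genotypes. These fits called 2.3%, 1.34% and 5.06% of all genes in Control, RevDKO and RevScapTKO with the first list, and 0.961%, 0.12% and 3.07% with the second. With the pan-macrophage list 4, 1 and 1 genes had an unadjusted p under 0.05 in Control, RevDKO and RevScapTKO, and with the endothelial list 0, 0 and 6.

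A direct test of the difference in daily pattern, a joint limma test of the cosine and sine terms, called 0 of 10 genes between RevDKO and Control hepatocytes and 0 between RevScapTKO and RevDKO, with 0 at an unadjusted p under 0.05 in both. It called 0.203% and 0% of all genes. The peak-to-trough swing of the fitted cosine for *Adgre1* was 3.03 in Control, 1.6 in RevDKO and 1.94 in RevScapTKO, on the log2 scale. A gene called rhythmic in one genotype and not in another was thus not shown to differ between them.

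In LM libraries JTK_CYCLE called 0 of 10 Kupffer genes in Control, where 15.2% of genes were called, 8 in RevDKO (21.8%), 0 in RevScapTKO (11.7%) and 8 in ScapKO (17.2%). In RevDKO the mean was highest at ZT4 for 9 genes and at ZT10 for *Marco*, and lowest at ZT22 or ZT16. *Clec4f* in RevDKO was at 6495, 7571 and 3121 RPKTM at ZT4, at 1801, 4902 and 3855 at ZT10, at 1706, 2602 and 908 at ZT16, and at 1320, 856 and 1829 at ZT22. The ZT4 libraries were all above the ZT16 and ZT22 libraries. *Cd68* had a peak/trough ratio of 3.16, and 9 of 10 genes, all but *Marco*, had every ZT4 library above every ZT22 library, against 10.9% of all genes.

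In RevDKO libraries the mean at ZT22 was thus the lowest for 7 genes in LMs and the highest for all 10 in hepatocytes. In Control LMs the mean was highest at ZT10 and lowest at ZT16 for 9 genes. *Clec4f* was there at 5151, 3855 and 2992 at ZT4, at 7571, 7201 and 4479 at ZT10, and at 4902, 2183 and 1733 at ZT16. The count in Control rested on 1 library: without ZT22 replicate 1, where *Cd5l* stood at 13099 RPKTM, 9 of 10 genes were called. In RevDKO 4 were called without ZT4 replicate 1 or without ZT4 replicate 2, and 5 without ZT16 replicate 3. The share of all genes called in these runs with a library left out is not given here. Whether the changed counts are particular to the Kupffer genes was thus not tested.

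limma over the 4 times called 0 of 10 genes in Control, RevDKO and RevScapTKO LMs (0.0645%, 2.82% and 0.0645% of all genes), with 0, 9 and 0 at an unadjusted p under 0.05, and with the series entered once JTK_CYCLE called 0, 1 and 0 (1.9%, 2.82% and 1.54% of genes). With a peak/trough ratio above 2 it called 0, 8 and 0 (10.1%, 16.2% and 6.67%). The test of the difference in daily pattern called 0 of 10 genes between RevDKO and Control LMs, with *Marco* at an unadjusted p under 0.05, and 0 between RevScapTKO and RevDKO, with 0 at an unadjusted p under 0.05. Each called 0% of all genes. In RevDKO LMs the summed pan-macrophage list was 3599 to 6590 RPKTM at ZT4 and 1413 to 2324 at ZT22, hepatocyte markers 65877 to 120737 and 95813 to 154419, and stellate markers 634 to 783 and 596 to 1318. With the pan-macrophage covariate limma called *Adgre1* in RevDKO LMs and none of the others, and 6.38% of all genes. In Control and RevScapTKO it called 0 of 10, with 1 at an unadjusted p under 0.05 in each (2.18% and 0.136% of all genes). With the endothelial covariate it called 8 genes, all but *Timd4* and *Marco*, in a fit that called 7.51% of genes, and 0 in Control (0.158%) and RevScapTKO (0.244%), where 10 and 6 had an unadjusted p under 0.05. Both covariates were chosen after seeing the data.

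**Figure D5:**
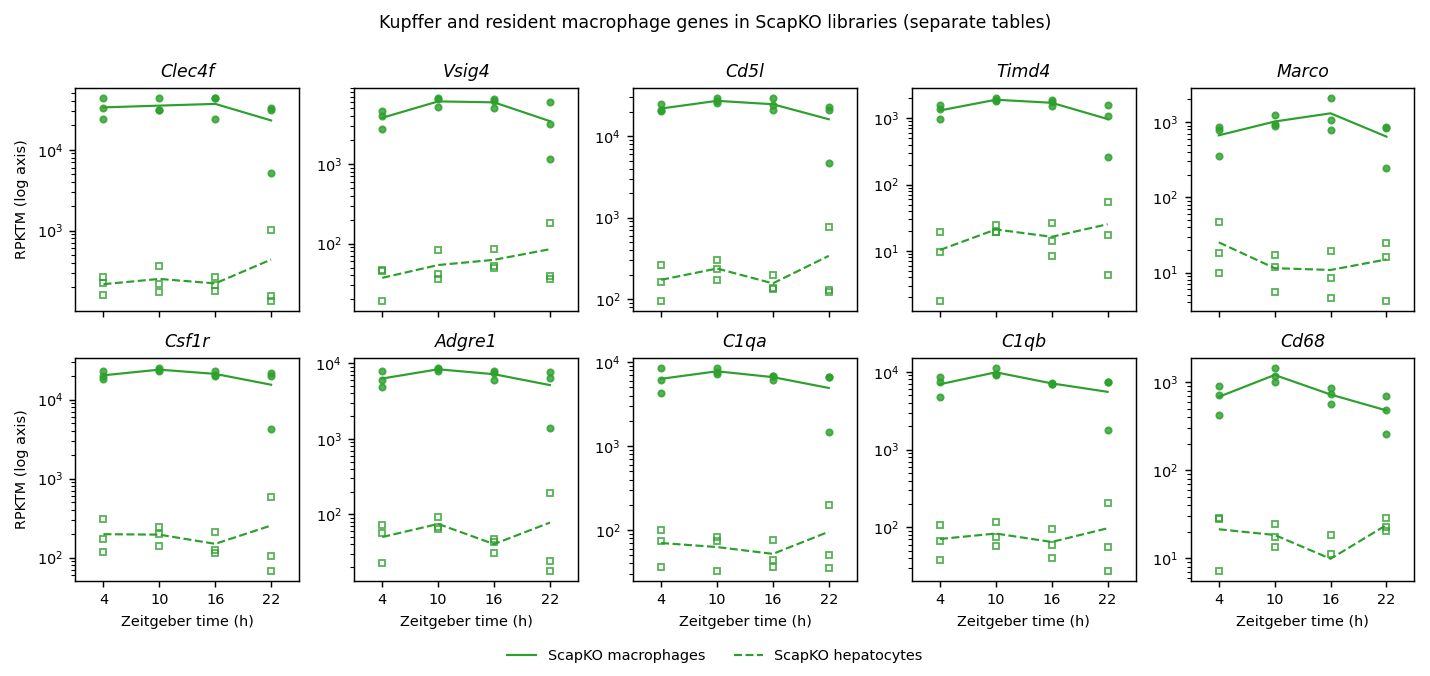
Levels of the 10 genes in the ScapKO LM table (filled points) and the ScapKO hepatocyte table (open squares), as RPKTM on a log axis against zeitgeber time in hours, 3 libraries per time, lines joining means. The 2 tables were normalized separately, and a *Cd68* value of 0 at ZT16 in hepatocytes cannot be drawn on this axis. One ZT22 library per table lies away from the other libraries of that time, low in LMs and high in hepatocytes.

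ScapKO LM libraries held Kupffer genes among their highest transcripts. *Clec4f* ranked between 3 and 50 among the genes of a library and ran from 5205 to 43548 RPKTM, with a median of 32025. *Cd5l* had a median of 23472, *Csf1r* of 21355, *C1qb* of 7378, *Timd4* of 1561 and *Cd68* of 727. Equal values recur (*Clec4f* was at 43548 in 4 libraries) because equal ranks receive equal values. The order *Clec4f*, *Cd5l*, *Csf1r* by median held in this table and, in the LM table of 3 genotypes, in each genotype, although the spreads of the last 2 genes overlapped.

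The mean over ScapKO LMs was highest at ZT10 for 8 genes and lowest at ZT22 for all 10. *Cd68* was at 711, 419 and 917 at ZT4, at 1173, 1006 and 1449 at ZT10, at 567, 866 and 743 at ZT16, and at 694, 255 and 484 at ZT22. All ZT10 libraries were above all others, and for 8 of 10 genes every ZT10 library was above every ZT22 library, against 10.6% of all genes. One library carried much of the ZT22 low. In ZT22 replicate 2 *Clec4f* was at 5205 and *Cd68* at 255, while summed endothelial markers were 13411 RPKTM against 2313 to 5224 in the other libraries and summed stellate markers 3899 against 371 to 1198. Without it 1 of 10 genes was called, and 3, 4 or 5 were called without ZT10 replicate 3, 1 or 2, with the shares of all genes in these runs not given here. limma over the 4 times called 0 (0% of all genes), with 1 at an unadjusted p under 0.05, and a peak/trough ratio above 2 left 1 (10.4% of genes), as did entering the series once (3.31%).

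In ScapKO hepatocytes *Clec4f* ran from 135 to 1024 RPKTM with a median of 216, and *Marco* from 4.2 to 47.2 with a median of 13.8. The top value of *Clec4f* was in ZT22 replicate 2, against 365 in the next library, and there too *Csf1r* (592) and *C1qb* (209) were highest. Summed endothelial markers were 5541 RPKTM in that library and 948 to 1794 in the others. *Scap* was also highest there, at 1006 RPKTM against a median of 345 over the ScapKO hepatocyte libraries, although the library is labelled ScapKO. These values cover whole transcripts, and the reason was not tested. Without ZT22 replicate 2, 3 of 10 genes were called rhythmic by JTK_CYCLE, and the share of all genes in that run is not given here. With all 12 libraries 0 were called (15.6% of all genes), also with the series entered once (3.83%). One library of this table, ZT16 replicate 3, held *Xist* at 129.7 RPKTM against at most 15.0 in the others while the Y-linked *Ddx3y* was at 475, and without it the count remained 0. The labels call these libraries liver macrophages in one field and hepatocytes in their titles, and the hepatocyte markers, 500773 to 1492490 RPKTM in sum, were above the Kupffer genes in all 12.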

How the data were processed

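RNA was sequenced as Illumina TruSeq libraries. Per the study's methods and the submitters' processing notes, the authors aligned reads to mm9 with STAR and counted RefSeq transcripts with HOMER (versions and counting strand not given in the sources used here), and deposited RPKM-type values, RPKTM (10 times RPKM) and quantile normalized within each of 4 tables. Depth is therefore unknown, and no counting interval is given.

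From these values, 1 transcript per gene was kept. Then limma 3.58.1 (R 4.3.3) was fitted with trend to log2(RPKTM + 1) of genes above 5 in at least 3 libraries. The fit had 12 group means in each table of 3 genotypes and 1 mean per time in each ScapKO table. JTK_CYCLE was rerun in Python 3.11.15 on genes above 5 in at least 2 libraries. Both were tested on simulated data. Named genes were the 10 members, up to 3 called genes with the largest change per companion list and LM contrast (other hepatocyte genes were named as examples after their values were seen), and the 5 genes most like the members. The members and lists were chosen with earlier results of these data known. Alternatives covered pseudocounts of 0.1 and 5, no filter, all transcripts, covariates, pairwise fits, a replicate block and leaving out each library. No authors' comparison columns were used.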

Additional observations from a re-analysis of the deposited data

How the results depend on the processing

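The counts of called Kupffer genes for mean level stayed as reported under both other pseudocounts, no filter, all transcripts, fits of the 2 genotypes compared and, for LMs, without the 3 libraries highest in *Alb*. With the pan-macrophage covariate the RevScapTKO counts became 0 and 0 in hepatocytes and 1 against RevDKO in LMs, and with the endothelial covariate 5 (against RevDKO) and 0 (against Control) in hepatocytes. Leaving out 1 library at a time gave 0 to 1 genes in LMs for RevDKO against Control and for RevScapTKO against RevDKO. Over all genes these fits called 48 to 475 and 314 to 1179. For rhythm, limma over ZT called 0 in RevDKO and ScapKO LMs and 2 and 1 in RevDKO and RevScapTKO hepatocytes. With the pan-macrophage covariate it called 1 in RevDKO LMs, and with either covariate 0 in hepatocytes of the 3 genotypes. A series entered once gave 1 in RevDKO and in ScapKO LMs and 1, 0 and 1 in Control, RevDKO and RevScapTKO hepatocytes, and a ratio over 2 gave 1 in ScapKO LMs. With 1 library left out the counts ran in LMs from 0 to 9 (Control), 4 to 10 (RevDKO), 0 to 1 (RevScapTKO) and 1 to 9 (ScapKO), and in hepatocytes from 9 to 10, 4 to 8, 4 to 10 and 0 to 3. For these rhythm runs the shares of all genes are not given here, so the ranges are not set against them.

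Log2 differences of single genes that changed sign were these, and the cause was not tested. In LMs with the pan-macrophage covariate they became 0.059 (*Vsig4*), 0.14 (*Timd4*), 0.022 (*Adgre1*) for RevDKO against Control, 0.092 (*Clec4f*) for RevScapTKO against Control and -0.024 (*C1qa*) for RevScapTKO against RevDKO. For the last contrast they became -0.14 (*Clec4f*), -0.39 (*Csf1r*), -0.23 (*C1qa*), -0.18 (*C1qb*) with the hepatocyte covariate, and 0.012 (*Cd68*) without the libraries highest in *Alb*. In hepatocytes they became -0.27 (*Clec4f*), -0.19 (*Vsig4*), -0.25 (*Marco*), -0.26 (*Csf1r*), -0.086 (*Adgre1*), -0.16 (*C1qa*), -0.074 (*C1qb*) for RevDKO against Control with the endothelial covariate. With the pan-macrophage covariate they became -0.067 (*Vsig4*), -0.20 (*Timd4*), -0.21 (*Marco*), -0.14 (*Adgre1*), -0.079 (*C1qa*) for RevScapTKO against RevDKO and -0.11 (*Cd5l*), -0.059 (*Marco*) against Control. With 1 library left out the range was -0.30 to 0.023 (*Vsig4*), -0.038 to 0.43 (*Cd5l*), -0.090 to 0.17 (*Csf1r*), -0.13 to 0.17 (*C1qa*), -0.091 to 0.23 (*C1qb*), -0.19 to 0.064 (*Cd68*) for RevScapTKO against RevDKO in LMs, and -0.084 to 0.12 (*Clec4f*), -0.25 to 0.42 (*Marco*), -0.11 to 0.13 (*Csf1r*), -0.031 to 0.26 (*C1qa*), -0.12 to 0.020 (*Cd68*) for RevDKO against Control in hepatocytes.

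Replicate numbers were not taken as pairs, since the labels give no shared origin and correlations of deviations exceeded 0.1 in only 3 to 8 of 12 same-numbered pairs per contrast (8, with a median of 0.14, between RevScapTKO and Control LMs). With the replicate number as a replicate block, 0 of 10 Kupffer genes were called in each LM contrast (4 at an unadjusted p under 0.05 for RevDKO and 5 for RevScapTKO against Control, from 1 each) and 0, 10 and 10 in hepatocytes, while calls over all genes in LMs went from 80, 419 and 524 to 167, 574 and 836. No filter took all-gene calls for RevDKO against Control LMs from 80 to 45, and a pseudocount of 0.1 to 49.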

Other observations

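Some libraries held a Kupffer gene out of proportion to the others, which was noticed after the values were seen. In RevDKO LMs at ZT10, replicate 2 had *Cd5l* at 302 RPKTM beside *Clec4f* at 4902, a ratio of 0.0616, while the other 11 RevDKO libraries had ratios of 0.71 to 1.08. In RevDKO hepatocytes at ZT22, replicate 2 had *Cd5l* at 123 beside *Clec4f* at 482, a ratio of 0.256, with the next lowest RevDKO ratio at 0.506. In Control LMs the highest ratio, 1.82, was in ZT22 replicate 1.

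The ratio of *C1qb* to *C1qa*, chains of one complex encoded side by side, had medians of 1.04 to 1.09 in the 3 genotypes of the LM table and of 0.94 to 1.01 in the hepatocyte table, with ranges of 0.835 to 1.417 and 0.574 to 1.39 over single libraries. In ScapKO LMs, *Marco* divided by *Clec4f* was between 0.0148 and 0.0867, with the highest value in ZT16 replicate 1. These ratios, too, were chosen after the values were seen.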
